A study of Homo sapiens with 16 samples.

Results

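The genes described here are 54 of those that build and run DNA replication origins and forks. They were chosen by name for their roles, with earlier results of these data known. The roles run from the origin recognition complex to the replicative polymerases, the sliding clamp and the enzymes that supply deoxynucleotides. Not every subunit of these complexes is among them. Each gene was matched to 1 row of a table of 60676 genes. All 54 were among the 16503 genes that passed the filter on low counts and were tested. The libraries came from THP-1 cells, a human acute monocytic leukemia line that stops dividing and takes on macrophage features when it is treated with phorbol-12-myristate-13-acetate (PMA). There were 4 lines, each selected after transduction with a pLKO.1 lentivirus that carried a short hairpin RNA: against UHRF1 (shUHRF1), DNMT1 (shDNMT1) or DNMT3B (shDNMT3B), or a control hairpin (shNC). Each line was kept for 48 h in 100 ng/ml PMA or in the solvent DMSO, and each of the 8 groups had 2 libraries of stranded mRNA sequencing. UHRF1 is the factor that brings DNMT1 to newly copied DNA, DNMT1 restores methylation there, and DNMT3B is a de novo methyltransferase.

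Replication is prepared in G1, when the origin recognition complex, CDC6 and CDT1 load the MCM helicase onto DNA. The CDC7-DBF4 kinase and cyclin E-dependent kinase then bring in CDC45 and GINS, the helicase starts to unwind, and polymerases alpha, delta and epsilon copy the strands with the help of the PCNA clamp, its RFC loader and the single-strand binding protein RPA. Many of these genes are known targets of E2F factors, which activate them at the transition from G1 to S phase and which the retinoblastoma family holds down in cells that have left the cycle.

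Promoter windows from RefSeq (GRCh38.p14), running 250 bases before to 50 bases after each annotated start, were found for 47 of the 54 genes. The genes without one are MCM4, MCM5, GINS4, CCNE2, POLD3, RPA2 and RPA3. The windows were searched on both strands for 4 spellings of the E2F motif (TTTCCCGC, TTTCGCGC, TTTGCCGC and TTTGGCGC) and for CCAAT, the motif of the NF-Y factor, the cell cycle element CHR and the GC box. The E2F letters were in 19 of the 47 windows (40.4%), against 5.21% of the 11736 windows of all genes tested and 3.33% of all 27305 windows of the table. CCAAT was in 28 of the 47 (59.6%), against 36.6% of the windows of genes tested. CHR (TTTGAA) was in 3 of the 47 (6.38%), against 10.1%, and the GC box (GGGCGG) in 34 (72.3%), against 68.1%. A match describes the letters only. The 150 bases before the start are given for 5 genes with E2F letters and different roles and for TK1, which had none and kept the third lowest share of its level after PMA in shNC. Capitals mark the E2F letters, and each sequence is written 5′ to 3′ on the strand of its gene. The windows are CDT1 chr16:88803639-88803788 on the plus strand, MCM6 chr2:135876444-135876593 on the minus strand, GINS2 chr16:85688955-85689104 on the minus strand, PCNA chr20:5126623-5126772 on the minus strand, TYMS chr18:657503-657652 on the plus strand and TK1 chr17:78187205-78187354 on the minus strand.
CDT1: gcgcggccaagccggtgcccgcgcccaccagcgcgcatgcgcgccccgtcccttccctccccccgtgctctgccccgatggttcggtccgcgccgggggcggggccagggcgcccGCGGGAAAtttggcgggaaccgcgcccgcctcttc
MCM6: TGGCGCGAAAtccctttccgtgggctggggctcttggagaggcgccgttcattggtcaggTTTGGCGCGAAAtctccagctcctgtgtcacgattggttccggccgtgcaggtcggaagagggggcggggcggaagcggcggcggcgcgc
GINS2: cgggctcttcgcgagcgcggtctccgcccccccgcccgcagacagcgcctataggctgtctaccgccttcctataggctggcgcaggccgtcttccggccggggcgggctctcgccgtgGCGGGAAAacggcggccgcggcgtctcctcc
PCNA: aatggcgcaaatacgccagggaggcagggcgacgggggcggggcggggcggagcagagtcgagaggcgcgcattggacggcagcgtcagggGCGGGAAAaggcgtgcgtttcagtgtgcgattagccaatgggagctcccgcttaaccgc
TYMS: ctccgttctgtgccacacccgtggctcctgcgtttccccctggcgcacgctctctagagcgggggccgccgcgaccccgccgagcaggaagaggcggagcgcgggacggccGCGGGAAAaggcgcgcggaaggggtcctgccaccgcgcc
TK1: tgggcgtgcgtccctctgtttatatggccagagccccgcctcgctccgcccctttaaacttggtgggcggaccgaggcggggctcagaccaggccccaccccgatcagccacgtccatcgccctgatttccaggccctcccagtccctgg
In MCM6 the letters form pairs that overlap on opposite strands. The first capitals printed hold the end of a match that starts before the window shown and the whole of the match that overlaps it. The single match of CDT1 starts at base -35, that of GINS2 at -31, that of TYMS at -39 and that of PCNA at -59, counted from the start.

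Total counts ran from 13883556 to 23151864 per library. The 8 libraries numbered 1 were deeper (20384066 and more) than those numbered 2 (15679327 and fewer). Mitochondrially encoded genes took 7.71 to 29.0% of the counts in libraries numbered 1 and 3.92 to 14.5% in those numbered 2. At the level of mRNA the targeted genes did not set the labels apart. The study examined the knockdown of the proteins by western blot, which is not analysed here. UHRF1 had 72 and 91.2 CPM (normalised counts scaled to a common library size) in shUHRF1 and 87.1 and 123 CPM in shNC in DMSO, DNMT1 had 82.4 and 111 CPM in shDNMT1 and 89.6 and 140 CPM in shNC, and DNMT3B had 6.4 and 6.87 CPM in shDNMT3B and 8.73 and 9.73 CPM in shNC. None of these 3 genes was called lower than in shNC (adjusted p = 0.61, 0.79 and 0.21). After PMA, DNMT3B was higher in shDNMT3B than in shNC, by a log2 fold change of 1.06 ± 0.23 (adjusted p = 0.0069), against the direction of a knockdown. UHRF1 had 9.62 and 12.2 CPM in shUHRF1 and 4.62 and 7.43 CPM in shNC after PMA (adjusted p = 0.13, 3.75e-04 with the replicate number as a block), and DNMT1 84.1 and 99.7 CPM in shDNMT1 and 56.9 and 78 CPM in shNC (adjusted p = 0.38, 0.0042 with the block), so that these too lay in the direction opposite to a knockdown. In 12 of the 16 sample records, moreover, the column name given for the sample states another condition than its title. The columns were read by their own names, so every line name below stands for the libraries labelled with it, and a difference between lines is a difference between labels.

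Markers of the myeloid lineage (SPI1, LYZ, CD33, CEBPA, FCGR1A and MPO) were all counted in every group, MPO at 5.9 CPM or less. The 6 macrophage markers MMP9, CSF1R, ITGAM, LPL, CD68 and APOE summed to 8155 to 30019 CPM in the PMA libraries, against 199 to 349 CPM in the DMSO libraries. Replicate 1 of shNC in DMSO held red cell transcripts (HBB at 232, HBA2 at 184 and HBA1 at 71.6 CPM), and the red cell genes summed to at most 2.23 CPM in every other library. Counts of called members that use shNC in DMSO are therefore also given without that library. Levels, shares and log2 fold changes that use shNC in DMSO include it unless stated. T and B cell markers summed to at most 2.80 CPM in any library.

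The replication genes were lower after PMA in all 4 lines, and the level that was left differed between them. Their summed level was 641 and 671 CPM after PMA in shUHRF1, 1046 and 1008 CPM in shDNMT1, 1069 and 1112 CPM in shDNMT3B and 678 and 647 CPM in shNC. In DMSO it was 4603 and 5183 CPM in shUHRF1, 4737 and 4853 CPM in shDNMT1, 3958 and 3832 CPM in shDNMT3B and 4702 and 4650 CPM in shNC. The libraries labelled shDNMT1 and shDNMT3B thus kept sums after PMA above all of shUHRF1 and shNC, while in DMSO shDNMT3B lay below the rest. As a share of the same line in DMSO, the mean sum after PMA was 13.4% in shUHRF1, 21.4% in shDNMT1, 28.0% in shDNMT3B and 14.2% in shNC. Mitochondrially encoded genes took 19.5 and 9.35% of the counts in the PMA libraries of shDNMT3B, against 9.54 and 3.92% in shUHRF1, 7.71 and 4.86% in shDNMT1 and 10.3 and 4.76% in shNC, so that for each replicate number shDNMT3B had the highest share. With these genes left out, the median level left over the 54 genes was 10.7% in shUHRF1, 19.2% in shDNMT1, 26.9% in shDNMT3B and 11.2% in shNC. In bulk RNA, fewer cells in S phase and less of each transcript per cell cannot be told apart.

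**Figure D1:**
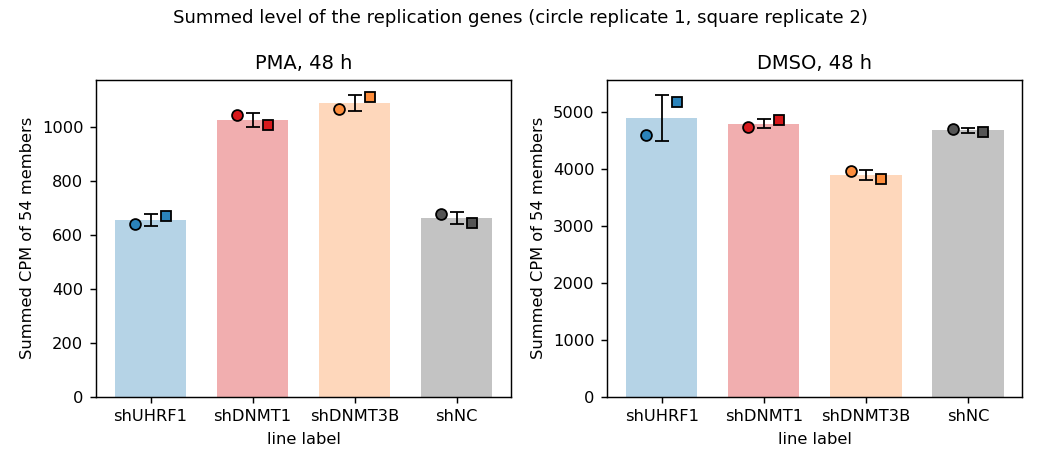
Summed level of the 54 replication genes in CPM (vertical axes, different scales) in each line after 48 h in PMA (left) and DMSO (right). Bars are means of 2 libraries, error bars are the SD, circles are replicate 1 and squares replicate 2. After PMA shDNMT1 and shDNMT3B lie above 1000 CPM in every library and shUHRF1 and shNC at 678 CPM or less.

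Gene by gene, the edgeR quasi-likelihood test called 53 of the 54 lower after PMA in shUHRF1, 53 in shDNMT1, 53 in shDNMT3B and 52 in shNC, and none higher in any line, also at an unadjusted p under 0.05 and by DESeq2. Among all genes tested, 25.5% were called lower in shUHRF1, 24.1% in shDNMT1, 19.7% in shDNMT3B and 26% in shNC. The members were chosen with earlier results of these data known. Their counts beside these shares therefore describe the chosen genes and do not test them as a set. A call here needs an adjusted p under 0.05 over all genes tested, with no limit on the fold change. The members' median log2 fold change (PMA over DMSO) was -3.20 in shUHRF1, -2.35 in shDNMT1, -1.86 in shDNMT3B and -3.12 in shNC, where the median over all genes tested lay at -0.005 in shUHRF1, 0.006 in shDNMT1, 0.02 in shDNMT3B and -0.005 in shNC. Both PMA libraries were below both DMSO libraries for 53 members in shUHRF1 and for all 54 in each of the other lines, against 37.2% of all genes tested in shUHRF1, 37.6% in shDNMT1, 34.7% in shDNMT3B and 38.1% in shNC. Without the shNC DMSO library that held red cell transcripts, 53 members were called lower in shNC. When libraries were scaled by upper-quartile factors, the median over all genes shifted by -0.31 in shUHRF1, -0.26 in shDNMT1, -0.24 in shDNMT3B and -0.28 in shNC. In shNC the split of all genes was then 3696 higher and 5609 lower, against 4688 and 4295 with TMM, and in shDNMT3B after PMA, set against shNC, 2347 and 1027, against 1864 and 1493. Of all genes tested, at most the 19.7% called lower in shDNMT3B can have been called lower in all 4 lines. In all 4 lines together, 51 members were called lower. The exceptions were ORC2, GINS3 and RPA2.

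The level left after PMA, as a percent of the mean in DMSO in the same line, had a median over the 54 genes of 10.8% in shUHRF1, 19.7% in shDNMT1, 27.6% in shDNMT3B and 11.4% in shNC. It was under 10% for 25 genes in shUHRF1, 2 in shDNMT1, 0 in shDNMT3B and 22 in shNC. shDNMT3B kept the highest share of the 4 lines for 43 genes, and shDNMT1 for 7. The share divides by the DMSO level, and the mean summed level in DMSO was 3895 CPM in shDNMT3B and 4795 CPM in shDNMT1. After PMA the mean sum was 1091 CPM in shDNMT3B and 1027 CPM in shDNMT1. The lowest share was that of shUHRF1 for 27 genes and that of shNC for 24. Read by replicate number, the share was higher in shDNMT3B than in shNC in both pairs for 49 genes, higher in shDNMT1 than in shNC in both for 46, and higher in shUHRF1 than in shNC in both for 13. The shares were taken for the 54 genes only, so these counts have no value over all genes tested beside them. In shNC the lowest shares were those of TYMS (2.18%), GINS2 (2.67%) and TK1 (3.65%), and the highest those of RPA2 (77.9%), GINS3 (77.3%) and ORC2 (63.9%).

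**Figure D2:**
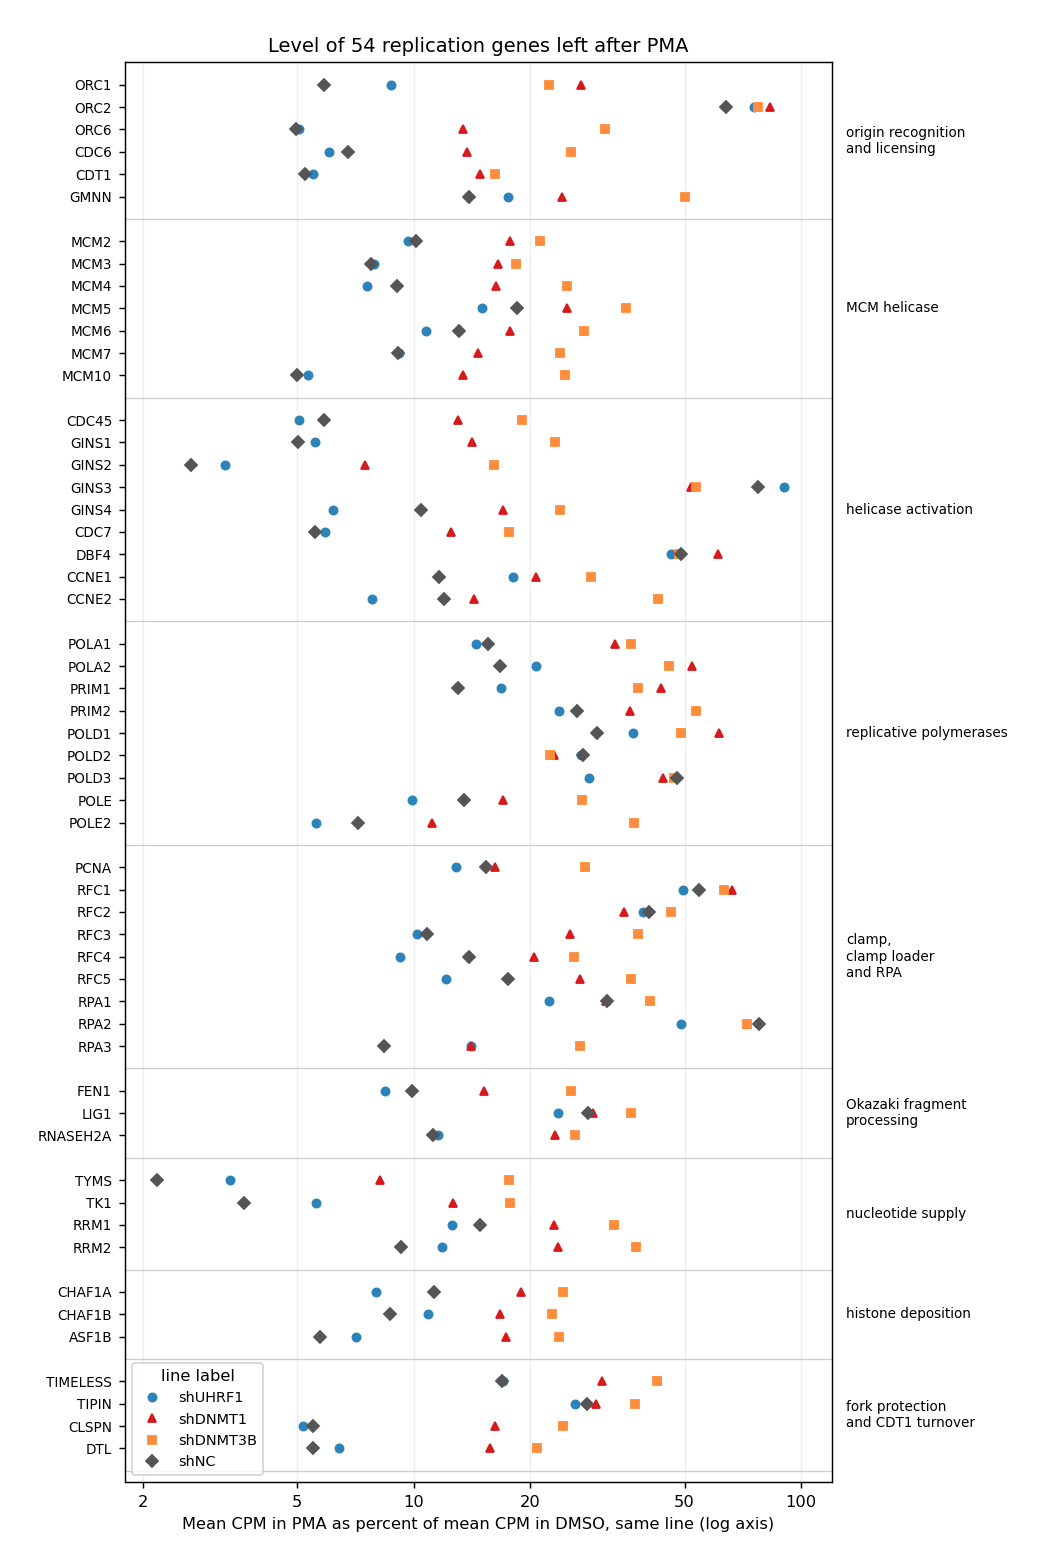
Level of each of the 54 genes after PMA as a percent of the mean CPM in DMSO of the same line (horizontal log axis), grouped by role. Each symbol is the ratio of 2-library means in 1 line. shDNMT3B lies rightmost for 43 of the 54 genes, and shUHRF1 or shNC leftmost for 27 and 24.

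Set against shNC after PMA, 33 of the 54 genes were higher in shDNMT1 and 39 in shDNMT3B, and none was called lower in either. Among all genes tested, 8.5% were called higher and 6.35% lower in shDNMT1, and 11.3% were called higher and 9.05% lower in shDNMT3B. At an unadjusted p under 0.05, 1 of the 54 was lower in shDNMT1 and 3 in shDNMT3B, beside 2098 and 2565 of the 16503 genes tested. DESeq2 called 0 and 1 lower, beside 1237 and 1862 of all genes. The members' median log2 fold change over shNC was 0.98 in shDNMT1 and 1.12 in shDNMT3B, with 0.01 and 0.04 over all genes tested. Both libraries of the line lay above both of shNC for 43 members in shDNMT1 (27.9% of all genes) and for 46 in shDNMT3B (33.3% of all genes). With the replicate number as a block, 39 were called higher and 2 lower in shDNMT1 (16.3% and 15.1% of all genes), and 44 higher and 3 lower in shDNMT3B (20.5% and 19.5%). The 2 lower in shDNMT1 were GINS3 and POLD2, and the 3 lower in shDNMT3B were these and DBF4. Both in shDNMT1 and in shDNMT3B fewer were called higher whenever 1 of the libraries compared was left out, so the 33 and the 39 need every library. Each such fit leaves 1 library in a group, so the drop need not come from the values of the library left out. In shUHRF1, 1 of the 54 was called higher than in shNC after PMA, RRM2, and none lower (2.04% and 1.65% of all genes). The median was 0.16. At an unadjusted p under 0.05, 7 genes were higher and 3 lower, beside 1512 and 1247 of the 16503 genes tested. DESeq2 called 2 higher and 1 lower (561 and 487 of all genes), and the block gave 5 higher and 2 lower (8.35% and 6.88% of all genes). The shDNMT1, shDNMT3B and shUHRF1 comparisons use the same shNC libraries, so their counts are not independent.

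In DMSO few of these genes were called between lines. None of the 54 was called in shUHRF1 against shNC, where 6 were higher and 1 lower at an unadjusted p under 0.05 and DESeq2 called 1 higher. Likewise none was called in shDNMT1, where 3 were higher and 0 lower at an unadjusted p under 0.05 and DESeq2 called 1 higher. In shDNMT3B 1 was called lower, RRM2, and none higher, with 11 lower and 1 higher at an unadjusted p under 0.05. Of all genes tested, 0.17% were called higher and 1.15% lower in shUHRF1, 0.57% and 3.39% in shDNMT1, and 1.62% and 2.89% in shDNMT3B. At an unadjusted p under 0.05, 924 of the 16503 genes were higher and 1297 lower in shUHRF1, 837 and 1815 in shDNMT1, and 1302 and 1659 in shDNMT3B. DESeq2 called 161 of all genes higher in shUHRF1 and 190 in shDNMT1. The members' median log2 fold change over shNC was 0.16 in shUHRF1, 0.07 in shDNMT1 and -0.21 in shDNMT3B. Both shDNMT3B libraries lay below both of shNC for 28 members (23.3% of all genes) and above for 4 (20%). In shUHRF1 these counts were 3 below (21.3%) and 24 above (17.8%), and in shDNMT1 4 below (24.9%) and 16 above (17.3%). The replicate block gave 8 higher and 1 lower in shUHRF1 (4.59% and 6.87% of all genes), 2 higher and 0 lower in shDNMT1 (4.34% and 9.23%), and 2 higher and 12 lower in shDNMT3B (7.28% and 11.4%). Without the shNC library that held red cell transcripts, the count in shDNMT3B was 0 and the others stayed at 0.

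**Figure D3:**
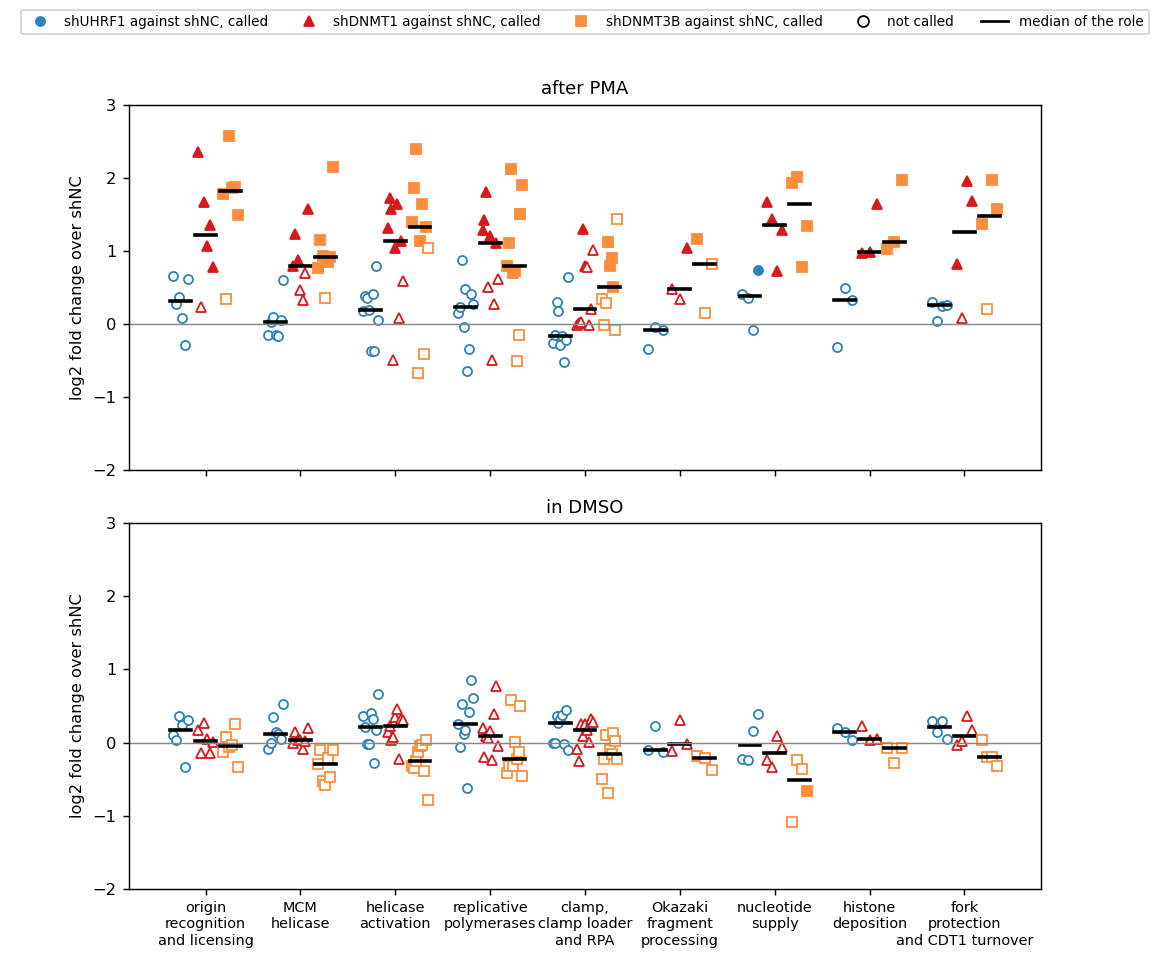
Log2 fold change over shNC (vertical axis) of each gene in shUHRF1, shDNMT1 and shDNMT3B, after PMA (top) and in DMSO (bottom), by role. Filled symbols passed an adjusted p of 0.05, open ones did not, and black lines are medians of a role. After PMA most shDNMT1 and shDNMT3B symbols are filled and above 0, and in DMSO RRM2 in shDNMT3B is the only filled one.

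The PMA response itself differed from that of shNC, by the test of the interaction of line and treatment, for 20 of the 54 genes in shDNMT1 and 31 in shDNMT3B. Each of these fell less in the labelled line than in shNC, and none fell more, with 0 more negative at an unadjusted p under 0.05 and by DESeq2 in either line. Of all genes tested, 5.64% had a more positive and 1.07% a more negative response in shDNMT1, and 5.08% and 1.7% did in shDNMT3B. The members' median difference was 0.79 in shDNMT1 and 1.31 in shDNMT3B on the log2 scale, and -0.05 in shUHRF1, where the median over all genes lay at 0.06 in shDNMT1, 0.07 in shDNMT3B and 0.06 in shUHRF1. No member was called in shUHRF1 (0.739% and 0.109% of all genes), and none by DESeq2. At an unadjusted p under 0.05, 1 was more positive and 5 more negative, beside 1294 and 676 of the 16503 genes tested. With the block 0 were more positive and 2 more negative (POLD3 and RPA2), where 6.02% and 2.47% of all genes were so called. In shDNMT3B fewer than 31 were called whenever 1 of the 8 libraries compared was left out. None of these counts was above the one without the shNC DMSO library that held red cell transcripts. The block raised the count in shDNMT1 to 32, with GINS3 more negative (12.8% and 5.81% of all genes). A fit of only the 4 groups compared gave 11 in shDNMT1. Leaving out 1 of the 8 libraries compared gave 9 (shNC PMA replicate 1), 10 (shNC DMSO replicate 2), 11 (shDNMT1 PMA replicate 1 or DMSO replicate 2), 12 (shDNMT1 DMSO replicate 1 or shNC PMA replicate 2), 13 (shDNMT1 PMA replicate 2) or 16 (shNC DMSO replicate 1). Without the library with red cell transcripts the counts were 16 in shDNMT1 and 29 in shDNMT3B.

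**Figure D4:**
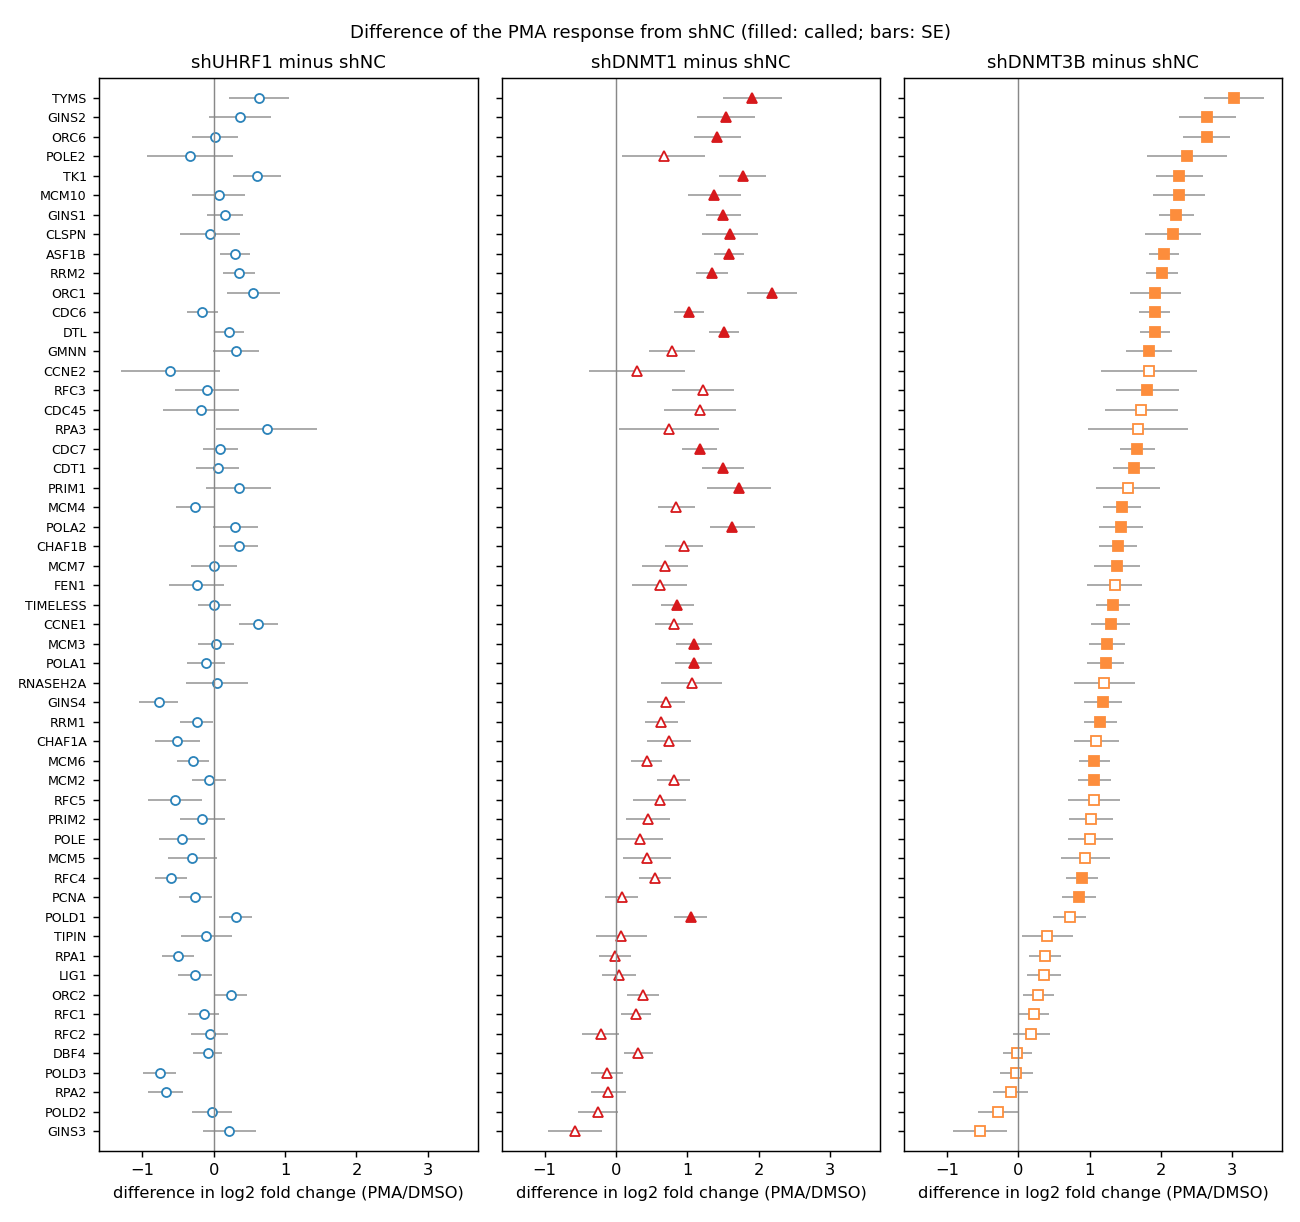
Difference of the log2 PMA response from that of shNC (horizontal axes) for each gene in shUHRF1, shDNMT1 and shDNMT3B, in order of the shDNMT3B value. Bars are the SE of the fit, and filled symbols passed an adjusted p of 0.05. TYMS stands at the top for shDNMT3B (3.02) and GINS3 at the bottom (-0.53), while all shUHRF1 symbols are open.

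Macrophage markers differed between the lines after PMA as well, in a sum that MMP9 dominated. MMP9, a secreted matrix protease, had 25705 and 20740 CPM in shUHRF1, 11056 and 7148 CPM in shDNMT1, 4904 and 4787 CPM in shDNMT3B and 14476 and 11712 CPM in shNC after PMA. The 6 markers, each counted in every group, summed to 24943 to 30019 CPM in shUHRF1, 11349 to 15675 CPM in shDNMT1, 8155 to 8521 CPM in shDNMT3B and 16121 to 19294 CPM in shNC. The sum was lowest in shDNMT3B. CSF1R, the receptor of the macrophage growth factor, had 1136 and 1260 CPM in shUHRF1, 983 and 866 CPM in shDNMT1, 684 and 651 CPM in shDNMT3B and 1267 and 1115 CPM in shNC, again lowest in shDNMT3B. LPL, lipoprotein lipase, had 1410 and 1400 CPM in shUHRF1, 1665 and 1760 CPM in shDNMT1, 1034 and 998 CPM in shDNMT3B and 1817 and 1844 CPM in shNC, with the same line lowest. CD68 had 1014 and 950 CPM in shUHRF1, 1335 and 1081 CPM in shDNMT1, 1209 and 1082 CPM in shDNMT3B and 1265 and 1031 CPM in shNC, and APOE had 577 and 357 CPM in shUHRF1, 360 and 205 CPM in shDNMT1, 492 and 422 CPM in shDNMT3B and 275 and 204 CPM in shNC. ITGAM, an integrin subunit, had 175 and 237 CPM in shUHRF1, 275 and 289 CPM in shDNMT1, 198 and 216 CPM in shDNMT3B and 194 and 215 CPM in shNC, highest in shDNMT1, where its PMA response was more positive than in shNC by 1.33 (adjusted p = 0.031). The level of ITGAM after PMA was not called against shNC in shDNMT1 (log2 fold change 0.47, adjusted p = 0.21). CD68, APOE and ITGAM were thus not lowest in shDNMT3B. By the same edgeR test MMP9 (-1.43, adjusted p = 0.036), CSF1R (-0.84, adjusted p = 0.0044) and LPL (-0.85, adjusted p = 0.0036) were called lower in shDNMT3B than in shNC after PMA. CD68, APOE and ITGAM were not called there, and none of the 6 was called after PMA in shUHRF1 or shDNMT1. In DMSO MMP9 was already lower in shDNMT3B than in shNC (-2.43, adjusted p = 0.017), and APOE was higher (1.43, adjusted p = 0.043). The difference from the shNC response was called in shDNMT3B for LPL alone of the 6 (-1.39, adjusted p = 0.0033). It was -0.86 (adjusted p = 0.051) for CSF1R and 0.99 (adjusted p = 0.47) for MMP9. The 6 myeloid markers summed to 415 to 487 CPM in shUHRF1, 489 to 693 CPM in shDNMT1, 539 to 607 CPM in shDNMT3B and 522 to 607 CPM in shNC. The part of the macrophage markers in the result on the replication genes was not tested.

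All 6 genes of origin recognition and licensing were lower after PMA in every line, though ORC2 was not called in each. All kept more of their level in shDNMT1 and shDNMT3B than in shUHRF1 and shNC. ORC1, the large ATPase subunit whose level follows the cell cycle, had 2.43 and 3.55 CPM in shUHRF1, 9.75 and 9.58 CPM in shDNMT1, 6.91 and 6.03 CPM in shDNMT3B and 1.94 and 1.8 CPM in shNC after PMA. In DMSO it had 31.1 and 37.2 CPM in shUHRF1, 30.9 and 40.8 CPM in shDNMT1, 26.8 and 31.1 CPM in shDNMT3B and 25.1 and 38.5 CPM in shNC. The PMA libraries of shDNMT1 were the highest and did not overlap with any other line. After PMA the log2 fold change over shNC was 2.36 ± 0.27 (adjusted p = 1.04e-04) in shDNMT1, 1.78 ± 0.28 (adjusted p = 8.09e-04) in shDNMT3B and 0.66 ± 0.29 (adjusted p = 0.27) in shUHRF1. Its PMA response differed from that of shNC by 2.19 ± 0.35 (adjusted p = 0.0022) in shDNMT1 and by 1.92 ± 0.36 (adjusted p = 0.0056) in shDNMT3B. Of the 54 genes, ORC1 had the largest such difference in shDNMT1.

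ORC6, the small subunit needed to load the helicase, had 1.58 and 2.16 CPM in shUHRF1, 4.11 and 5.13 CPM in shDNMT1, 7.31 and 9.93 CPM in shDNMT3B and 1.42 and 1.44 CPM in shNC after PMA. Here shDNMT3B was highest, at 31.2% of its DMSO level against 4.98% in shNC, and the difference of the response was 2.64 ± 0.33 (adjusted p = 3.51e-04). CDC6, the loading factor that joins the origin recognition complex in G1, had 3.62 and 3.96 CPM in shUHRF1, 8.41 and 6.5 CPM in shDNMT1, 13.3 and 12.8 CPM in shDNMT3B and 3.52 and 3.61 CPM in shNC after PMA. The DMSO libraries of CDC6 had 62.5 and 62.6 CPM in shUHRF1, 55.9 and 52.9 CPM in shDNMT1, 51 and 51.7 CPM in shDNMT3B and 50.6 and 54.9 CPM in shNC. Thus CDC6 lay within 50.6 to 62.6 CPM in every DMSO library, whereas after PMA the shDNMT1 and shDNMT3B libraries each stood above all of shUHRF1 and shNC. Over shNC after PMA CDC6 changed by 1.07 ± 0.16 (adjusted p = 7.62e-04) in shDNMT1 and 1.87 ± 0.16 (adjusted p = 1.46e-05) in shDNMT3B. CDT1, which delivers the MCM ring and is destroyed once S phase starts, kept 5.5% in shUHRF1, 14.8% in shDNMT1, 16.2% in shDNMT3B and 5.23% in shNC. GMNN, the inhibitor of CDT1, is another member of the group, and it kept 17.5% in shUHRF1, 24.1% in shDNMT1, 50.2% in shDNMT3B and 13.9% in shNC.

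ORC2, a core subunit of the origin recognition complex, fell least of the group in every line. It had 15.3 and 17 CPM in shUHRF1, 14.3 and 17.2 CPM in shDNMT1, 17.8 and 16.2 CPM in shDNMT3B and 12.5 and 14.2 CPM in shNC after PMA and 20.8 and 21.9 CPM in shUHRF1, 17.9 and 20.01 CPM in shDNMT1, 21.7 and 22.3 CPM in shDNMT3B and 20.6 and 21.3 CPM in shNC in DMSO. The PMA libraries lay below the DMSO libraries of the same line in all 4 lines, but by a small step. The log2 fold change was -0.40 ± 0.15 (adjusted p = 0.041) in shUHRF1, -0.27 ± 0.15 (adjusted p = 0.16) in shDNMT1, -0.37 ± 0.15 (adjusted p = 0.069, 0.026 with the replicate block) in shDNMT3B and -0.65 ± 0.16 (adjusted p = 0.0035) in shNC. It was therefore called in shUHRF1 and shNC alone, and with upper-quartile in place of TMM factors in every line. ORC2 was not called in any comparison with shNC after PMA or in DMSO, other than in shDNMT3B after PMA with the replicate block (0.36, adjusted p = 0.0496). Without either shUHRF1 PMA library or either shUHRF1 DMSO library, the PMA response of ORC2 in shUHRF1 was no longer called (adjusted p = 0.19, 0.076, 0.079 and 0.15).

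All 7 MCM genes fell in every line. MCM2 to MCM7 form the helicase ring, and MCM10 helps to start unwinding. MCM3, the most abundant of them in shNC in DMSO at 145 CPM per kilobase of exon, had 39.7 and 43.9 CPM in shUHRF1, 97.3 and 96 CPM in shDNMT1, 85.7 and 96 CPM in shDNMT3B and 41.9 and 40.1 CPM in shNC after PMA and 459 and 597 CPM in shUHRF1, 552 and 619 CPM in shDNMT1, 465 and 523 CPM in shDNMT3B and 484 and 574 CPM in shNC in DMSO. The PMA libraries of shDNMT1 and shDNMT3B had about the same level, and both groups stood above those of shUHRF1 and shNC, which overlapped. MCM3 was higher than in shNC after PMA by 1.24 ± 0.18 (adjusted p = 5.43e-04) in shDNMT1 and by 1.15 ± 0.18 (adjusted p = 8.39e-04) in shDNMT3B, and its log2 fold change in shUHRF1 was 0.03 ± 0.18 (adjusted p = 0.98). MCM10 had 2.04 and 1.39 CPM in shUHRF1, 3.39 and 3.42 CPM in shDNMT1, 4.46 and 5.74 CPM in shDNMT3B and 1.42 and 0.794 CPM in shNC after PMA, and it was higher than in shNC by 1.58 ± 0.29 (adjusted p = 0.0031) in shDNMT1 and 2.16 ± 0.29 (adjusted p = 2.81e-04) in shDNMT3B. MCM5 had the largest share left of the group in shNC, 18.4%, and was not called against shNC after PMA in any line (log2 fold changes -0.15 in shUHRF1, 0.46 in shDNMT1 and 0.35 in shDNMT3B). With the replicate block MCM5 was called higher in shDNMT1 (adjusted p = 0.0096) and shDNMT3B (adjusted p = 0.045), and lower in shDNMT3B in DMSO (adjusted p = 0.0029). Of the 7, 4 were called higher than in shNC after PMA in shDNMT1 and 6 in shDNMT3B, and 2 and 6 had a called difference of the response. The block gave 6 in shDNMT1 and 7 in shDNMT3B after PMA, and 5 and 7 differences of the response.

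In the group that activates the helicase, GINS2, a subunit of the GINS complex, fell furthest in every line. It had 1.47 and 0.973 CPM in shUHRF1, 2.68 and 3.15 CPM in shDNMT1, 4.57 and 5.67 CPM in shDNMT3B and 0.578 and 1.44 CPM in shNC after PMA. In DMSO GINS2 had 34.3 and 40.6 CPM in shUHRF1, 37.7 and 39.9 CPM in shDNMT1, 32.7 and 30.7 CPM in shDNMT3B and 39.9 and 35.8 CPM in shNC. The PMA libraries of shUHRF1 and shNC overlapped, and those of shDNMT1 and shDNMT3B lay above them. Its PMA response was -4.91 ± 0.30 (adjusted p = 3.27e-08) in shUHRF1, -3.74 ± 0.28 (adjusted p = 1.95e-07) in shDNMT1, -2.63 ± 0.26 (adjusted p = 3.77e-06) in shDNMT3B and -5.28 ± 0.31 (adjusted p = 2.49e-08) in shNC. Compared with shNC after PMA, GINS2 was higher by 1.58 ± 0.33 (adjusted p = 0.0069) in shDNMT1 and by 2.39 ± 0.32 (adjusted p = 2.81e-04) in shDNMT3B. GINS1 had 3.06 and 3.2 CPM in shUHRF1, 7.55 and 8.42 CPM in shDNMT1, 8.51 and 9.01 CPM in shDNMT3B and 2.1 and 2.74 CPM in shNC after PMA, and both shDNMT1 and both shDNMT3B libraries stood above all shUHRF1 and shNC libraries. The difference of its response from shNC was 1.50 ± 0.24 (adjusted p = 0.0021) in shDNMT1 and 2.22 ± 0.24 (adjusted p = 1.56e-04) in shDNMT3B. CDC7, the kinase that phosphorylates the MCM ring, kept 5.9% in shUHRF1, 12.5% in shDNMT1, 17.6% in shDNMT3B and 5.57% in shNC. Its partner DBF4 kept 46.1% in shUHRF1, 60.9% in shDNMT1, 48.5% in shDNMT3B and 49% in shNC. CDC7 was higher than in shNC after PMA by 1.64 ± 0.19 (adjusted p = 1.01e-04) in shDNMT1 and 1.64 ± 0.19 (adjusted p = 1.00e-04) in shDNMT3B, and the log2 fold change of DBF4 was 0.09 ± 0.14 (adjusted p = 0.76) in shDNMT1 and -0.40 ± 0.14 (adjusted p = 0.066, 0.021 with the replicate block) in shDNMT3B. CDC45, the helicase cofactor, was higher by 1.32 ± 0.40 (adjusted p = 0.041) in shDNMT1 and 1.40 ± 0.40 (adjusted p = 0.026) in shDNMT3B. CCNE2 shares 37.0% of its exon bases with INTS8 on the other strand. GINS2 in shDNMT1 after PMA lost its call without shNC PMA replicate 1 (adjusted p = 0.088). Without either shDNMT1 PMA library or shNC PMA replicate 1, CDC45 in shDNMT1 after PMA was no longer called (adjusted p = 0.077, 0.18 and 0.32). CDC45 in shDNMT3B after PMA lost its call without either shDNMT3B PMA library or shNC PMA replicate 1 (adjusted p = 0.058, 0.13 and 0.21).

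GINS3, a further subunit of the same complex, did not follow GINS1 and GINS2. It had 29.2 and 22.4 CPM in shUHRF1, 18.5 and 13.4 CPM in shDNMT1, 15.1 and 13.3 CPM in shDNMT3B and 24.6 and 20.4 CPM in shNC after PMA, and 33.4 and 23.8 CPM in shUHRF1, 35 and 26.5 CPM in shDNMT1, 31.8 and 21.2 CPM in shDNMT3B and 33.4 and 24.8 CPM in shNC in DMSO. In shUHRF1 the PMA and DMSO libraries overlapped, and in each group replicate 1 was higher than replicate 2. Its PMA response was -0.15 ± 0.26 (adjusted p = 0.65) in shUHRF1, -0.94 ± 0.27 (adjusted p = 0.011) in shDNMT1, -0.90 ± 0.27 (adjusted p = 0.016) in shDNMT3B and -0.37 ± 0.27 (adjusted p = 0.26, 0.017 with the replicate block) in shNC. GINS3 was thus called lower in shDNMT1 and shDNMT3B and not in the other lines, the reverse of the order seen for most members, although without the block the difference from shNC was not called. It was -0.57 ± 0.38 (adjusted p = 0.47, 0.032 with the replicate block) in shDNMT1 and -0.53 ± 0.38 (adjusted p = 0.51) in shDNMT3B. With the block, its level after PMA was called below shNC in shDNMT1 (-0.50, adjusted p = 0.0066) and in shDNMT3B (-0.66, adjusted p = 5.20e-04). A match of E2F letters starts at base -5 of the GINS3 window. Without shDNMT1 PMA replicate 2 or shDNMT1 DMSO replicate 1, the PMA response of GINS3 in shDNMT1 was no longer called (adjusted p = 0.098 and 0.092). The PMA response of GINS3 in shDNMT3B lost its call without either shDNMT3B PMA library or shDNMT3B DMSO replicate 1 (adjusted p = 0.051, 0.1 and 0.15).

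**Figure D5:**
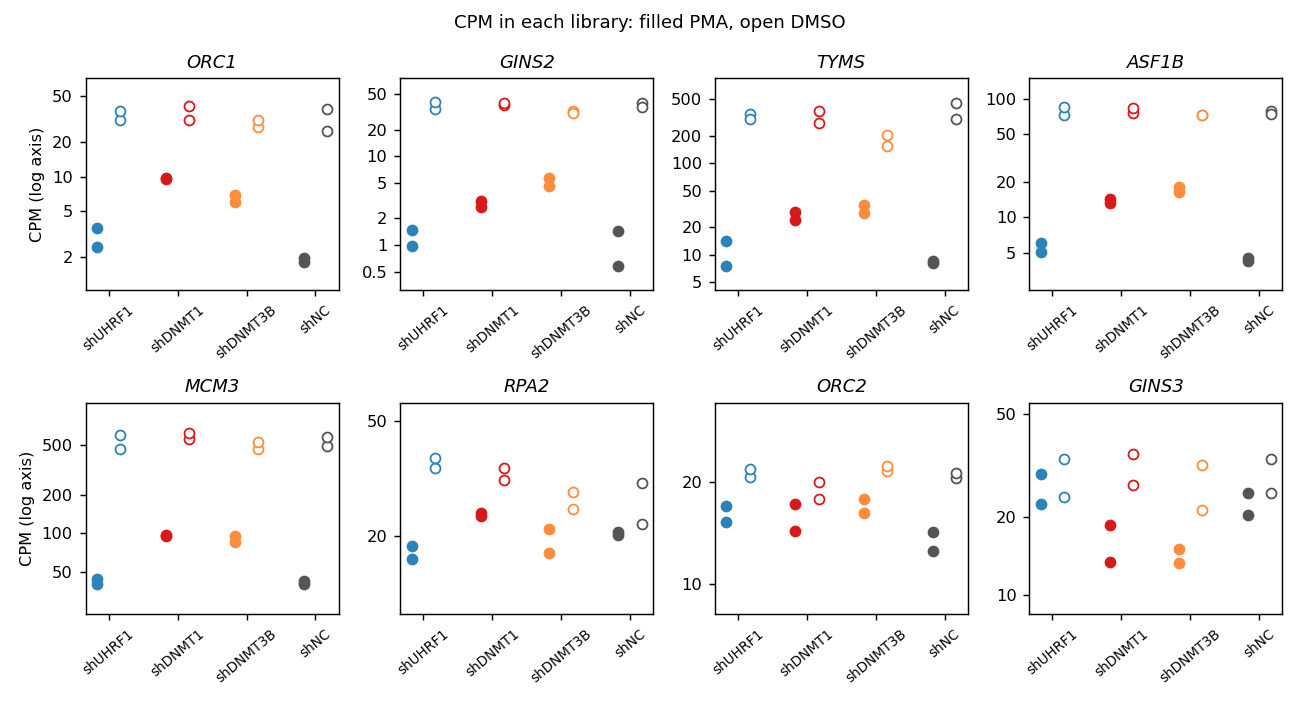
CPM (vertical log axes, a different range in each panel) of 8 members in every library, with PMA filled and DMSO open for each line. The 6 panels of ORC1, GINS2, TYMS, ASF1B, MCM3 and RPA2 put PMA below DMSO in shNC, by a wide gap in all but RPA2, while in ORC2 the gap is small in every line and in GINS3 the shUHRF1 libraries overlap.

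The 9 replicative polymerase genes fell in every line, but kept more than the licensing genes did: the median left after PMA was 20.7% in shUHRF1, 36.2% in shDNMT1, 38.0% in shDNMT3B and 16.7% in shNC. POLA1, the catalytic subunit of the polymerase that lays the first primers with primase, had 4.02 and 5.63 CPM in shUHRF1, 10.1 and 11.2 CPM in shDNMT1, 7.37 and 7.73 CPM in shDNMT3B and 4.2 and 4.48 CPM in shNC after PMA. In DMSO POLA1 had 31.8 and 34.7 CPM in shUHRF1, 35.7 and 28.4 CPM in shDNMT1, 19.7 and 21.8 CPM in shDNMT3B and 26.6 and 29.1 CPM in shNC. POLA1 was higher than in shNC after PMA by 1.29 ± 0.19 (adjusted p = 7.50e-04) in shDNMT1 and by 0.80 ± 0.20 (adjusted p = 0.013) in shDNMT3B, and no library of these lines overlapped with shNC. PRIM1, the catalytic subunit of primase, was higher by 1.81 ± 0.34 (adjusted p = 0.0034) in shDNMT1 and 2.12 ± 0.34 (adjusted p = 9.96e-04) in shDNMT3B. POLD3, a subunit of polymerase delta, stood apart with 10.7 and 13.1 CPM in shUHRF1, 16.7 and 19.4 CPM in shDNMT1, 13.5 and 13.5 CPM in shDNMT3B and 14 and 16 CPM in shNC after PMA, where both shNC libraries lay below those of shDNMT1 and above those of shUHRF1 and shDNMT3B. POLD3 was not called against shNC after PMA in any line, with or without the block. POLD3 had 44.5 and 39.6 CPM in shUHRF1, 44.5 and 37.7 CPM in shDNMT1, 29.5 and 28 CPM in shDNMT3B and 32.6 and 30.1 CPM in shNC in DMSO, and its PMA response was -1.82 ± 0.17 (adjusted p = 1.11e-06) in shUHRF1, -1.19 ± 0.16 (adjusted p = 4.86e-05) in shDNMT1, -1.09 ± 0.16 (adjusted p = 1.40e-04) in shDNMT3B and -1.07 ± 0.16 (adjusted p = 1.18e-04) in shNC. POLD2, the small subunit of the same polymerase, had 43.4 and 49.1 CPM in shUHRF1, 55.5 and 46.7 CPM in shDNMT1, 49.1 and 51.9 CPM in shDNMT3B and 75.5 and 68.1 CPM in shNC after PMA, and all 6 libraries of the other lines lay below the 2 of shNC. The log2 fold change of POLD2 over shNC was -0.64 ± 0.20 (adjusted p = 0.11, 0.0092 with the replicate block) in shUHRF1, -0.49 ± 0.20 (adjusted p = 0.13, 0.022 with the replicate block) in shDNMT1 and -0.51 ± 0.20 (adjusted p = 0.094, 0.015 with the replicate block) in shDNMT3B, called with the block and not without it. Without either shDNMT3B PMA library or either shNC PMA library, POLA1 in shDNMT3B after PMA was no longer called (adjusted p = 0.058, 0.074, 0.097 and 0.063).

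The clamp, its loader and RPA had the smallest median difference from shNC of the 9 roles. After PMA 2 of the 9 were called higher than in shNC in shDNMT1 and 4 in shDNMT3B (4 and 6 with the block), and the group's median log2 fold change over shNC was 0.21 in shDNMT1 and 0.50 in shDNMT3B. RFC4, a small subunit of the loader, had 6.17 and 7.51 CPM in shUHRF1, 13.3 and 15.5 CPM in shDNMT1, 15.5 and 13.3 CPM in shDNMT3B and 9.25 and 7.29 CPM in shNC after PMA and 73.3 and 74.5 CPM in shUHRF1, 69 and 72 CPM in shDNMT1, 55.8 and 55.1 CPM in shDNMT3B and 59.1 and 59.6 CPM in shNC in DMSO. All RFC4 libraries of shDNMT1 and shDNMT3B lay above those of shNC after PMA, by 0.79 ± 0.16 (adjusted p = 0.0064) and 0.79 ± 0.16 (adjusted p = 0.0052) on the log2 scale. PCNA, the sliding clamp, had 19.6 and 15.2 CPM in shUHRF1, 22.1 and 19.6 CPM in shDNMT1, 27.9 and 25.4 CPM in shDNMT3B and 23.1 and 18.7 CPM in shNC after PMA. The log2 fold change of PCNA over shNC was -0.26 ± 0.17 (adjusted p = 0.5) in shUHRF1, -0.01 ± 0.17 (adjusted p = 0.99) in shDNMT1 and 0.35 ± 0.17 (adjusted p = 0.17, 0.028 with the replicate block) in shDNMT3B. In DMSO it had 141 and 130 CPM in shUHRF1, 137 and 120 CPM in shDNMT1, 96.6 and 95.4 CPM in shDNMT3B and 146 and 126 CPM in shNC, lowest in shDNMT3B, and the difference of the response in shDNMT3B was 0.85 ± 0.23 (adjusted p = 0.048). Without the block, neither the DMSO level nor the PMA level of PCNA in shDNMT3B was called different from shNC on its own, and with it both were (adjusted p = 0.0027 in DMSO). RFC1, the large loader subunit, kept 49.6% in shUHRF1, 66.2% in shDNMT1, 63.3% in shDNMT3B and 54.5% in shNC, and RFC2 kept 39% in shUHRF1, 34.9% in shDNMT1, 46.1% in shDNMT3B and 40.5% in shNC. RFC4 in shDNMT1 after PMA lost its call without shDNMT1 PMA replicate 2 or shNC PMA replicate 2 (adjusted p = 0.056 and 0.08). Without shDNMT3B PMA replicate 1 or shNC PMA replicate 2, RFC4 in shDNMT3B after PMA was no longer called (adjusted p = 0.06 and 0.067). The difference of the PCNA response in shDNMT3B lost its call without either shDNMT3B PMA library, either shDNMT3B DMSO library, either shNC PMA library or either shNC DMSO library (adjusted p = 0.17, 0.091, 0.11, 0.12, 0.059, 0.19, 0.16 and 0.059).

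RPA2, a subunit of the single-strand binding protein, had 16.6 and 18.4 CPM in shUHRF1, 23.9 and 23.4 CPM in shDNMT1, 17.4 and 21.1 CPM in shDNMT3B and 20.7 and 20.1 CPM in shNC after PMA. In DMSO RPA2 had 34.4 and 37.2 CPM in shUHRF1, 34.3 and 31.2 CPM in shDNMT1, 24.7 and 28.3 CPM in shDNMT3B and 21.9 and 30.5 CPM in shNC, and the 2 DMSO libraries of shNC, at 21.9 and 30.5 CPM, lay further apart than those of the other lines. Its PMA response was -1.03 ± 0.18 (adjusted p = 2.98e-04) in shUHRF1, -0.47 ± 0.17 (adjusted p = 0.038) in shDNMT1, -0.47 ± 0.18 (adjusted p = 0.047) in shDNMT3B and -0.36 ± 0.18 (adjusted p = 0.1, 0.038 with the replicate block) in shNC. The largest subunit, RPA1, kept 22.4% in shUHRF1, 31.4% in shDNMT1, 40.8% in shDNMT3B and 31.5% in shNC, and the smallest, RPA3, kept 14% in shUHRF1, 14.1% in shDNMT1, 26.9% in shDNMT3B and 8.38% in shNC. RPA3 differed between replicate numbers in every group, with 99.8 and 46.2 CPM in shNC in DMSO. Over shNC after PMA its log2 fold change was 0.64 ± 0.52 (adjusted p = 0.62, 0.023 with the replicate block) in shUHRF1, 1.02 ± 0.52 (adjusted p = 0.23, 8.50e-05 with the replicate block) in shDNMT1 and 1.44 ± 0.52 (adjusted p = 0.069, 5.07e-07 with the replicate block) in shDNMT3B. Without either shDNMT1 PMA library or either shDNMT1 DMSO library, the PMA response of RPA2 in shDNMT1 was no longer called (adjusted p = 0.071, 0.14, 0.17 and 0.073). The PMA response of RPA2 in shDNMT3B lost its call without either shDNMT3B PMA library or either shDNMT3B DMSO library (adjusted p = 0.28, 0.063, 0.051 and 0.22). Without shNC DMSO replicate 1, the PMA response of RPA2 in shNC was called (adjusted p = 0.025).

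FEN1, LIG1 and RNASEH2A, which trim, seal and clear the RNA primers of Okazaki fragments, fell in every line. FEN1, the flap endonuclease, had 13.9 and 11.2 CPM in shUHRF1, 24.7 and 19.8 CPM in shDNMT1, 38 and 33.3 CPM in shDNMT3B and 20.1 and 11.5 CPM in shNC after PMA. FEN1 was called higher than in shNC in shDNMT3B (1.17 ± 0.28, adjusted p = 0.011) and not in shDNMT1 (0.49 ± 0.28, adjusted p = 0.29, 0.014 with the replicate block), where the libraries at 24.7 and 19.8 CPM overlapped with the 20.1 and 11.5 CPM of shNC. RNASEH2A, the catalytic subunit of ribonuclease H2, had 4.02 and 3.48 CPM in shUHRF1, 11 and 5.13 CPM in shDNMT1, 5.71 and 8.44 CPM in shDNMT3B and 4.1 and 3.83 CPM in shNC after PMA, and was called in shDNMT1 (1.04 ± 0.32, adjusted p = 0.044) and not in shDNMT3B (0.83 ± 0.32, adjusted p = 0.088). Its 2 shDNMT1 libraries differed by more than those of the other lines. GENCODE places 53.3% of its exon bases within THSD8 on the same strand. The difference of the FEN1 response from shNC was 0.61 ± 0.38 (adjusted p = 0.44, 0.035 with the replicate block) in shDNMT1 and 1.35 ± 0.38 (adjusted p = 0.055, 1.94e-05 with the replicate block) in shDNMT3B, and LIG1 and RNASEH2A had no called difference of the response in any line, with or without the block. FEN1 in shDNMT3B after PMA lost its call without shDNMT3B PMA replicate 1 or shNC PMA replicate 2 (adjusted p = 0.074 and 0.11). Without shDNMT1 PMA replicate 1 or either shNC PMA library, RNASEH2A in shDNMT1 after PMA was no longer called (adjusted p = 0.48, 0.17 and 0.19). Without shDNMT3B DMSO replicate 1, shNC PMA replicate 1 or shNC DMSO replicate 2, the difference of the FEN1 response in shDNMT3B was called (adjusted p = 0.037, 0.022 and 0.049).

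The 4 genes of nucleotide supply fell in every line, and all 4 were higher than in shNC after PMA in shDNMT1 and in shDNMT3B. TYMS, which makes thymidylate, was the most abundant member per length in shNC in DMSO, at 156 CPM per kilobase of exon. It had 14.2 and 7.58 CPM in shUHRF1, 29.1 and 23.7 CPM in shDNMT1, 34.5 and 28.4 CPM in shDNMT3B and 8.46 and 8.01 CPM in shNC after PMA. In DMSO TYMS had 342 and 304 CPM in shUHRF1, 370 and 275 CPM in shDNMT1, 204 and 152 CPM in shDNMT3B and 456 and 301 CPM in shNC, with both shDNMT3B libraries below all others. The PMA response of TYMS was -4.88 ± 0.34 (adjusted p = 8.29e-08) in shUHRF1, -3.61 ± 0.31 (adjusted p = 9.30e-07) in shDNMT1, -2.50 ± 0.30 (adjusted p = 2.16e-05) in shDNMT3B and -5.52 ± 0.35 (adjusted p = 3.99e-08) in shNC. The difference from shNC was 1.91 ± 0.41 (adjusted p = 0.014) in shDNMT1 and 3.02 ± 0.42 (adjusted p = 7.94e-04) in shDNMT3B. ENOSF1, on the other strand, shares 39.9% of the exon bases of TYMS, and the strand setting of the counting is not given in the sources used here. TK1, thymidine kinase, had 7.47 and 6.4 CPM in shUHRF1, 16 and 13.2 CPM in shDNMT1, 22.3 and 21.4 CPM in shDNMT3B and 6.83 and 3.83 CPM in shNC after PMA, and the shDNMT3B libraries lay above all others. Over shNC it was higher by 1.44 ± 0.25 (adjusted p = 0.0018) in shDNMT1 and 2.02 ± 0.25 (adjusted p = 1.50e-04) in shDNMT3B. Without shDNMT1 PMA replicate 1, shDNMT1 DMSO replicate 2, either shNC PMA library or shNC DMSO replicate 1, the difference of the TYMS response in shDNMT1 was no longer called (adjusted p = 0.064, 0.064, 0.058, 0.063 and 0.053).

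RRM1 and RRM2 are the large and small subunits of ribonucleotide reductase, and RRM2 is the one whose level follows S phase. RRM2 had 11.7 and 12.9 CPM in shUHRF1, 16.9 and 19 CPM in shDNMT1, 17.8 and 19.7 CPM in shDNMT3B and 7.67 and 7.0 CPM in shNC after PMA. In DMSO RRM2 had 94.2 and 114 CPM in shUHRF1, 75.3 and 76.8 CPM in shDNMT1, 45.1 and 54.9 CPM in shDNMT3B and 75.2 and 83 CPM in shNC. After PMA it was higher than in shNC by 0.74 ± 0.17 (adjusted p = 0.028) in shUHRF1, 1.29 ± 0.16 (adjusted p = 2.12e-04) in shDNMT1 and 1.35 ± 0.16 (adjusted p = 1.45e-04) in shDNMT3B. In DMSO it was lower in shDNMT3B by 0.66 ± 0.15 (adjusted p = 0.027), the one call of that comparison. RRM1 had 18.5 and 18 CPM in shUHRF1, 33 and 31.3 CPM in shDNMT1, 36.3 and 30.6 CPM in shDNMT3B and 19.3 and 19.4 CPM in shNC after PMA, and was higher than in shNC by 0.73 ± 0.17 (adjusted p = 0.011) in shDNMT1 and 0.79 ± 0.17 (adjusted p = 0.0058) in shDNMT3B. RRM2 in shUHRF1 after PMA lost its call without either shUHRF1 PMA library or either shNC PMA library (adjusted p = 0.09, 0.17, 0.14 and 0.19). Without either shDNMT3B DMSO library or either shNC DMSO library, RRM2 in shDNMT3B in DMSO was no longer called (adjusted p = 0.23, 0.051, 0.078 and 0.18). RRM1 in shDNMT1 after PMA lost its call without shDNMT1 PMA replicate 1 or either shNC PMA library (adjusted p = 0.065, 0.081 and 0.07). Without shDNMT3B PMA replicate 1, RRM1 in shDNMT3B after PMA was no longer called (adjusted p = 0.066).

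All 3 histone deposition genes fell in every line and were higher than in shNC after PMA in shDNMT1 and shDNMT3B. ASF1B, a chaperone of histones H3 and H4 in dividing cells, had 5.15 and 6.05 CPM in shUHRF1, 14.4 and 13.2 CPM in shDNMT1, 18.1 and 16.5 CPM in shDNMT3B and 4.57 and 4.26 CPM in shNC after PMA. In DMSO ASF1B had 72.8 and 85.2 CPM in shUHRF1, 75.5 and 84.2 CPM in shDNMT1, 73.4 and 72.8 CPM in shDNMT3B and 79.4 and 74.5 CPM in shNC. The lines overlapped in DMSO, and after PMA the shDNMT1 and shDNMT3B libraries lay above all those of shUHRF1 and shNC. ASF1B had the smallest adjusted p of all members against shNC after PMA in shDNMT3B, with a log2 fold change of 1.97 ± 0.16 (adjusted p = 8.57e-06), beside 1.64 ± 0.16 (adjusted p = 2.43e-05) in shDNMT1 and 0.34 ± 0.16 (adjusted p = 0.33) in shUHRF1. The difference of its response was 1.59 ± 0.21 (adjusted p = 5.61e-04) in shDNMT1 and 2.04 ± 0.21 (adjusted p = 1.10e-04) in shDNMT3B. CHAF1A and CHAF1B, subunits of the chromatin assembly factor CAF-1, kept 11.3% and 8.68% in shNC. CHAF1A was higher than in shNC after PMA by 0.97 ± 0.23 (adjusted p = 0.014) in shDNMT1 and 1.03 ± 0.23 (adjusted p = 0.0082) in shDNMT3B, and its PMA libraries in shUHRF1 (4.53 and 7.72 CPM) overlapped with those of shNC (8.04 and 7.0 CPM). CHAF1A in shDNMT1 after PMA lost its call without shDNMT1 PMA replicate 2 or either shNC PMA library (adjusted p = 0.083, 0.063 and 0.11). Without shDNMT3B PMA replicate 2 or shNC PMA replicate 2, CHAF1A in shDNMT3B after PMA was no longer called (adjusted p = 0.087 and 0.073).

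TIMELESS, TIPIN, CLSPN and DTL, which stabilise stalled forks or, for DTL, mark CDT1 for destruction, fell in every line. DTL had the smallest adjusted p of the 54 in the shNC response. It had 4.47 and 4.17 CPM in shUHRF1, 11.8 and 11.3 CPM in shDNMT1, 10.9 and 10.6 CPM in shDNMT3B and 3.84 and 3.32 CPM in shNC after PMA. In DMSO DTL had 66.3 and 68.5 CPM in shUHRF1, 79.1 and 67.3 CPM in shDNMT1, 55.5 and 48.3 CPM in shDNMT3B and 65.9 and 64.2 CPM in shNC. After PMA the shDNMT1 and shDNMT3B libraries of DTL lay more than 2-fold above every shUHRF1 and shNC library, with log2 fold changes over shNC of 1.68 ± 0.16 (adjusted p = 2.15e-05) in shDNMT1 and 1.58 ± 0.16 (adjusted p = 3.98e-05) in shDNMT3B. TIMELESS had 10.9 and 12.9 CPM in shUHRF1, 17.6 and 16.6 CPM in shDNMT1, 23.5 and 26.2 CPM in shDNMT3B and 8.99 and 10.3 CPM in shNC after PMA, and over shNC it was higher by 0.83 ± 0.17 (adjusted p = 0.0062) in shDNMT1 and 1.37 ± 0.17 (adjusted p = 1.82e-04) in shDNMT3B. TIPIN, its binding partner, was not called against shNC after PMA: it had 9.0 and 7.72 CPM in shUHRF1, 9.08 and 8.21 CPM in shDNMT1, 10.5 and 8.37 CPM in shDNMT3B and 8.99 and 7.22 CPM in shNC, with log2 fold changes of 0.09 ± 0.26 (adjusted p = 0.88) in shDNMT1 and 0.21 ± 0.26 (adjusted p = 0.61) in shDNMT3B. RPL9P25, a pseudogene on the same strand, lies within 21.1% of the exon bases of TIPIN. TIMELESS in shDNMT1 after PMA lost its call without shNC PMA replicate 1 (adjusted p = 0.081).

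Genes with E2F letters kept a median of 9.15% after PMA in shUHRF1, 16.3% in shDNMT1, 25.4% in shDNMT3B and 9.12% in shNC (19 genes). Those with a window but no such letters kept 12.3% in shUHRF1, 23.4% in shDNMT1, 32.0% in shDNMT3B and 13.5% in shNC (28 genes). The ranges overlapped, from 2.18 to 77.3% with the letters and 3.65 to 63.9% without them in shNC, and TYMS and GINS3, at the lower and the upper end, both carry the letters. Across the 54 genes the level in shNC in DMSO per kilobase and the share left in shNC had a Pearson r of -0.24 and a Spearman rho of -0.19, as a description of genes that share the same libraries.

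A further 53 genes of replication (checkpoint, regulation, repair-linked helicases and further nucleotide enzymes) moved less uniformly. In the PMA response 37 were called lower and 4 higher in shUHRF1, 35 and 5 in shDNMT1, 33 and 2 in shDNMT3B, and 38 and 3 in shNC, with medians of -1.28, -1.21, -0.89 and -1.21 in the same order. After PMA 11 were higher than in shNC in shDNMT1 and 18 higher and 4 lower in shDNMT3B. The block gave 7 higher in the PMA response of shUHRF1 and of shNC, 4 in that of shDNMT3B, and after PMA 24 higher and 5 lower than in shNC in shDNMT1 and 25 and 7 in shDNMT3B. CCNA2, the S-phase cyclin, changed by -4.89 ± 0.26 (adjusted p = 1.00e-08) in shNC and RECQL4 by -3.59 ± 0.20 (adjusted p = 1.25e-08). In shNC the 3 that rose were MCM9 (1.37 ± 0.34, adjusted p = 0.004), RRM2B (0.83 ± 0.17, adjusted p = 0.001) and TOP1 (0.88 ± 0.18, adjusted p = 9.97e-04). MCM9 works in recombination, and RRM2B is the ribonucleotide reductase subunit that p53 induces and that serves cells outside S phase. After PMA MCM9, RRM2B and TOP1 were lower in shDNMT3B than in shNC (log2 fold changes -1.28, -1.09 and -0.83, each called), and in DMSO RRM2B was already lower there by 0.95 ± 0.17 (adjusted p = 0.0065).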

How the data were processed

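The deposited table held raw read counts per gene. Per the submitters' processing notes, the authors aligned reads of a stranded mRNA kit with STAR 2.4.0b to hg38 and counted them with HTSeq 0.6.1p1, and the notes also name Cufflinks 2.1.1 and edgeR. The strand setting of the counting is not given in the sources used here, and 23 of the 54 genes share exon bases with a gene on the other strand, 4 of them over 20%. Ensembl identifiers were named with GENCODE release 44. Columns were assigned to the 8 groups by the condition in their own names, since 12 sample records disagree with themselves. The members and lists were chosen with earlier results of these data known.

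Genes were filtered with filterByExpr (count minimum 10, total 15) and fitted in edgeR 4.0.16 (R 4.3.3) with TMM factors, all 8 groups in 1 quasi-likelihood fit with 8 residual degrees of freedom, and 13 comparisons, each with Benjamini-Hochberg adjustment over 16503 genes. Errors of log2 fold changes are SE. CPM use TMM library sizes, and levels across genes are CPM per kilobase of exon. Nothing in the labels says that the 2 libraries of a group came from separate cultures, so p-values measure the spread between these libraries, which may be technical. Same-numbered libraries deviated from their group means together in 28 of 28 pairs of groups (correlation 0.220 to 0.508 over 16503 genes), so the numbers were taken to pair the libraries, and the fit with the replicate number as a block is given where it changed a call or moved a count by more than 1.5 times. The common dispersion was 0.0439, and 0.0115 with the block.

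Alternatives were DESeq2 1.42.0, upper-quartile factors, no mitochondrially encoded genes, no filter, a fit of only the groups compared, the block, an exact test after DEGES normalization as in the study's methods, a fold limit and leaving out each library. The fitting was tested on simulated data, for shDNMT1 against shNC after PMA. It called 29% of simulated 2-fold changes and 86% of 4-fold changes, and 2.54% of its calls were false. A 2-fold change was thus often missed. The named genes are 27 members, by a rule: the smallest and largest adjusted p of each of 9 roles in the shNC response, those not called lower in every line, the 12 with the smallest adjusted p against shNC, and the 3 highest and 3 lowest shares left in shNC. From the list of 53 further genes, 5 were named, and a further one is not reported here. Other members named (GMNN, CDC45, DBF4, CCNE2, PRIM1, POLD2, PCNA, RFC1, RFC2, RPA1, RPA3, LIG1, CHAF1B, CLSPN and MCM6) were chosen after their values were seen. Python 3.11.15, pandas 2.3.3 and matplotlib 3.10.9 were used for summaries and figures.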

Additional observations from a re-analysis of the deposited data

Results flagged for a closer look

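The PMA response differed between lines by the interaction test, which sets the change in the labelled line against the change in shNC. In shDNMT1 this held for 20 of the 54 genes and in shDNMT3B for 31, each with a smaller fall than in shNC. In shDNMT1 the difference was 2.19 on the log2 scale for ORC1, 1.59 for ASF1B, 1.51 for DTL and 1.50 for GINS1. In shDNMT3B it was 2.22 for GINS1, 2.04 for ASF1B, 1.91 for DTL and 1.91 for CDC6. Both sets of differences use the same shNC libraries, and no targeted gene was called lower in the line that carries its hairpin. The cause of the differences was not tested.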

How the results depend on the processing

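No called result changed direction under any alternative. Members called against shNC after PMA depended on the setting. In shDNMT1 and in shDNMT3B fewer were called higher whenever 1 of the libraries compared was left out. In shUHRF1 the number higher was 1, and 2 by DESeq2, 0 without a filter, 0 in a fit of only the groups compared and 5 with the replicate block, while the number lower was 0, and 1 by DESeq2, 1 by the exact test and 2 with the block. In shDNMT1 the block gave 2 lower. In shDNMT3B the number lower was 0, and 1 by DESeq2, 1 without a filter, 2 in a fit of only the groups compared, 2 by the exact test and 3 with the block. In DMSO shUHRF1 had 1 higher by DESeq2, 1 without a filter, and 8 higher and 1 lower with the block. shDNMT1 had 1 higher by DESeq2, 1 without a filter and 2 with the block. shDNMT3B had 2 lower by DESeq2, 2 without a filter, 0 in a fit of only the groups compared, 0 by the exact test, and 12 lower and 2 higher with the block. For the difference of the PMA response, the block gave 2 lower in shUHRF1 and 1 lower and 32 higher in shDNMT1, and a fit of only the groups compared gave 11 higher in shDNMT1. The cause of these changes was not tested.

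Upper-quartile factors put the median share left after PMA at 8.77% in shUHRF1, 16.4% in shDNMT1, 23.4% in shDNMT3B and 9.43% in shNC, and without mitochondrially encoded genes it was 19.2% in shDNMT1. Taken from 1 replicate number at a time, it was 19.4 to 19.5% in shDNMT1 and 28.4 to 29.4% in shDNMT3B. Leaving out 1 library at a time gave 0 to 0 members higher in shUHRF1 after PMA, 0 to 1 lower in shDNMT3B in DMSO and 9 to 16 with a called difference in shDNMT1. With upper-quartile factors the split of all genes in shDNMT3B in DMSO was 362 higher and 388 lower, against 267 and 477. The exact test gives no value for differences of the response. With 2 libraries per group, a change missed by the test is not shown to be absent.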
